A study of Collinsia rattanii with 18 samples.

Results

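Floral buds of the outcrosser *C. linearis* and the selfer *C. rattanii* were compared at bud stage B2, the middle of the 3 pre-anthesis stages of the study. The comparison takes the 3 *C. linearis* B2 libraries and the 3 *C. rattanii* B2 libraries, 6 of the 18 RNA-seq libraries of the series, chosen by their species and stage labels alone. Each library holds several whole buds of 1 plant, and the 3 plants of a species are separate individuals, drawn from more than 1 wild population of their species, germinated in Tennessee and grown to flowering in California. No plant was treated, and plants of the 2 species are unpaired although both are numbered 1 to 3. The organism label names *C. rattanii* for every sample, so the species was read from the titles.

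*C. rattanii* and *C. linearis* are sister species. Both are self-compatible, but *C. rattanii* has small flowers in which the stigma meets the anthers early, whereas *C. linearis* has larger flowers in which the sexual phases are kept apart for longer. Such a set of reductions is called the selfing syndrome. In anthers, the tapetum builds the sporopollenin wall (exine) of the pollen grain, and in growing petals, filaments and styles the xyloglucan of the cell wall is cut and rejoined while cells expand. The stages were set on organ color and size in each species, so B2 buds of the 2 species match by morphology rather than by age.

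Reads of both species were aligned to the *C. rattanii* genome, and the gene models rest partly on *C. rattanii* libraries of this series. The part of this choice in any species difference was not tested. The 6 B2 libraries held between 27455365 and 41451418 counts on genes. At least 1 count was found for 29580 to 31476 genes per *C. linearis* library and for 29080 to 29356 per *C. rattanii* library. Pairs of libraries of 1 species differed by more than sampling noise (chi-square per degree of freedom from 134 to 434), so each was kept as a sample. Levels are counts per 1000000 (CPM) on library sizes scaled by the TMM method, without regard to gene length, so levels are compared between species and not between genes. The files give gene identifiers without names, so tissue markers could not be looked up and the makeup of the buds was not checked. In whole buds, fewer cells of a type and less RNA per cell cannot be told apart.

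At B2, 5561 of 27837 tested genes (20.0%) differed between the species at a false discovery rate (FDR) of 0.01 (edgeR's quasi-likelihood F-test, Benjamini-Hochberg adjustment). Of these, 2704 (9.71%) were higher in *C. linearis* and 2857 (10.3%) were lower. The fitted differences were large. The median was 3.43 on the log2 scale among the genes higher in *C. linearis* and -2.997 among the lower ones, whereas the median over all tested genes was 0.01, with quartiles at -0.84 and 1.09. Over 8-fold, 1470 genes were higher and 1427 lower, and only 362 of the called genes differed by less than 2-fold. Among the 5561 called genes, 738 had 0 counts in every B2 library of 1 species. The size of their log2 difference is therefore not a measured fold, and these genes enter the medians and the 8-fold numbers. The 3 libraries of one species lay entirely above those of the other for 13028 genes (46.8%), and 44 called genes had overlapping groups.

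**Figure D1:**
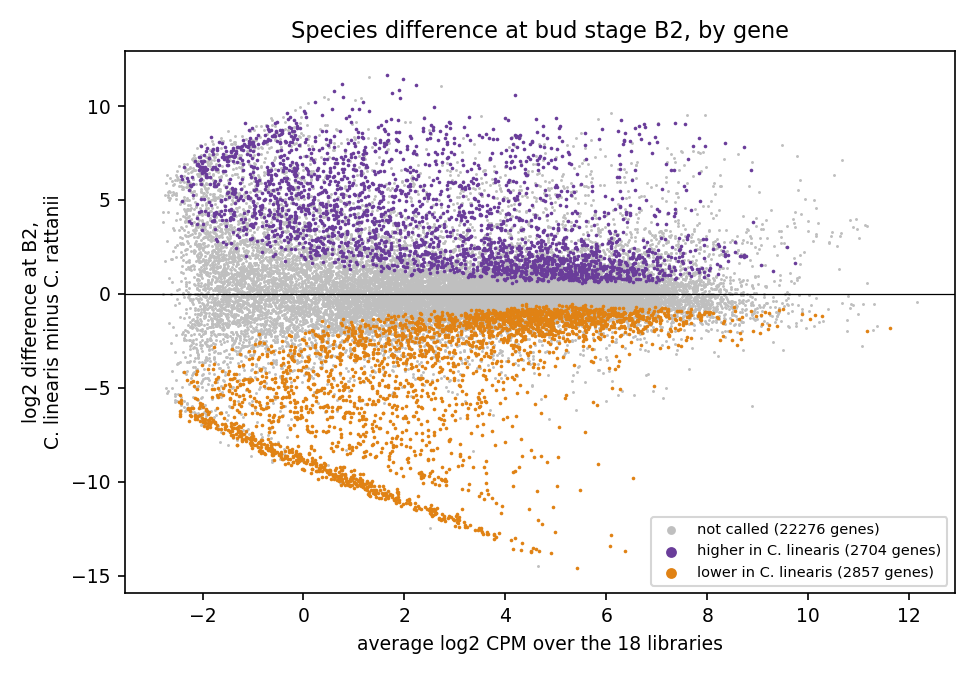
Log2 difference between *C. linearis* and *C. rattanii* at B2 (y axis) against the average log2 CPM over the 18 libraries (x axis), 1 point per tested gene, with the 2704 genes called higher in *C. linearis* in purple, the 2857 called lower in orange and the others in gray. Called genes lie on both sides of 0 at every level.

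The count of calls depended on which libraries were used. It was 5339 without *C. linearis* plant 3, 3806 without *C. linearis* plant 1 and 3127 without *C. linearis* plant 2. Without *C. rattanii* plants 1, 2 and 3 it was 3416, 3596 and 3677. The share of calls higher in *C. linearis*, 48.6% with all libraries, moved both ways. It was 38.2%, 32.3% and 38.0% without *C. rattanii* plants 1, 2 and 3, and 49.2%, 46.4% and 54.3% without *C. linearis* plants 1, 2 and 3. DESeq2, the tool of the study, called 8927 genes (30.7%), among them 5526 of the 5561, all in the same direction, and a fit on the 6 B2 libraries alone called 2589.

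Genes with a low mean level over the 6 B2 libraries were called more often. In 5 equal bins by mean level at B2, 28.4% of the genes were called in the lowest bin (median 0.414 CPM) and 25.1% in the next. In the upper 3 bins the share was 16.3%, 14.8% and 15.4%. The median size of a called difference was 6.54 on the log2 scale in the lowest bin and 1.36 in the highest. The filter on low counts keeps a gene that is high enough in 1 group of 3 libraries. The low bins can thus hold genes kept through the species where they are high. Their shares and sizes are therefore not read as a trait of weak expression. In the highest bin (median 79.3 CPM) 504 genes were higher in *C. linearis* and 351 lower, and in the lowest 761 were higher and 819 lower. Among the 20014 genes with at least 10 counts in each of the 6 libraries, 2999 were called.

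Part of the difference lay in genes with counts in the B2 libraries of one species only. Of 22494 genes with at least 10 counts in every *C. rattanii* library, 468 had 0 in every *C. linearis* library. Of 22237 genes with at least 10 counts in every *C. linearis* library, 178 had 0 in every *C. rattanii* library. A count of 0 here is not evidence that the gene or its transcript is absent. With a minimum of 30 counts the numbers were 332 and 44. The genes of *C. rattanii* only had a median of 113 counts per library, and those of *C. linearis* only a median of 41.3. Of the 468 genes, 298 also had no count in any *C. linearis* library at B1 or B3, and 65 of the 178 had none in *C. rattanii* at those stages. Both sets carry the alignment to one species' genome in their definition, and the larger number on the *C. rattanii* side is given as a count without a test.

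The most highly expressed genes of these 2 sets show what such a difference looks like. *RCORA181456* had 2594, 5509 and 2488 counts in *C. rattanii* plants 1 to 3 and 0 in each *C. linearis* plant. Against a floor of 3 counts over the *C. linearis* group it was at least 3381-fold lower in *C. linearis* (FDR 1.12e-06, edgeR's quasi-likelihood test), and it had no count in *C. linearis* at any stage. *RCORA36926* had 3936, 22 and 5046 counts in *C. rattanii*, so its mean rests on plants 1 and 3, and it was not called (edgeR FDR 0.0135). DESeq2 called it (FDR 1.47e-19). In the other direction, *RCORA100717* had 411, 401 and 218 counts in the *C. linearis* plants and none in *C. rattanii*, at least 358-fold higher by the same floor (edgeR FDR 4.72e-05). *RCORA39654* had 1382, 77 and 12 counts in the *C. linearis* plants and none in *C. rattanii*, so that plant 1 holds most of its counts. Its call (edgeR FDR 0.00598) was lost without *C. linearis* plant 1 (FDR 0.0132) and without *C. rattanii* plant 1, 2 or 3 (FDR 0.0191, 0.0207 and 0.0192). The files and the paper give no function for these 4 genes.

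Among called genes with at least 10 counts in all 6 libraries and groups that did not overlap, the largest differences were greater on the *C. linearis* side. *RCORA109713* stood at 369, 726 and 128 CPM in *C. linearis* plants 1 to 3 and at 0.979, 0.256 and 1.098 CPM in the *C. rattanii* plants. Every *C. linearis* plant was thus over 100 CPM and every *C. rattanii* plant near 1 or below, with a difference of 9.03 on the log2 scale (standard error (SE) 1.84, edgeR FDR 0.00219). *RCORA26572* stood at 254, 921 and 276 CPM against 1.40, 0.436 and 1.18 CPM, a difference of 8.91 (SE 2.08, edgeR FDR 0.00497). Both calls were lost without any 1 of the *C. rattanii* plants, where the FDR was between 0.0110 and 0.0127 for *RCORA109713* and between 0.0210 and 0.0246 for *RCORA26572*, and the second was also lost without *C. linearis* plant 2 (FDR 0.0134). The differences themselves stayed at 8.01 or more. At B1 and B3 *RCORA109713* was also called, with differences of 6.78 and 8.06 (edgeR FDR 0.00780 and 0.00454). *RCORA26572* was called by edgeR at neither, with differences of 7.29 and 4.77 (edgeR FDR 0.0120 and 0.0529). DESeq2 called it at both (FDR 8.41e-07 and 0.00195).

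The largest differences in the other direction varied less between plants. *RCORA136494* was at 0.495, 0.525 and 0.629 CPM in *C. linearis* and at 34.7, 87.4 and 30.2 CPM in *C. rattanii*, a difference of -6.52 (SE 0.94, edgeR FDR 0.000169). *RCORA121251* was at 0.866, 1.14 and 0.328 CPM against 42.0, 82.3 and 64.1 CPM, a difference of -6.35 (SE 0.59, edgeR FDR 4.12e-06). That the groups did not overlap was part of the rule by which both genes were picked. Both calls held with each B2 library left out in turn. *RCORA121251* was also called at B1 and B3, with differences of -7.55 and -6.20 (edgeR FDR 2.16e-06 and 6.01e-06). So was *RCORA136494*, with differences of -4.83 and -4.79 (edgeR FDR 0.000936 and 0.00117).

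A selection of 19 genes with an annotated function was taken, in pollen exine formation, xyloglucan metabolism, glycerol-3-phosphate catabolism and regulation of transcription. The annotations come from the paper, and further genes that it annotates, among them others of transcription and lipid metabolism, are not described here. The study itself had picked these genes on these same libraries because their course over the stages differed between the species, and the identifiers of 10 of them were read from a picture, so the counts below describe these genes and are no independent evidence about the processes. At B2, 2 of the 18 that were tested (11.1%, against 20.0% of all tested genes) were called by edgeR, both lower in *C. linearis*. DESeq2 called 1 higher and 5 lower, where it called 30.7% of all genes. The median difference over the 18 was -0.59, against 0.01 over all tested genes. The groups did not overlap for 9 of the 19, against 46.8% of all tested genes.

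**Figure D2:**
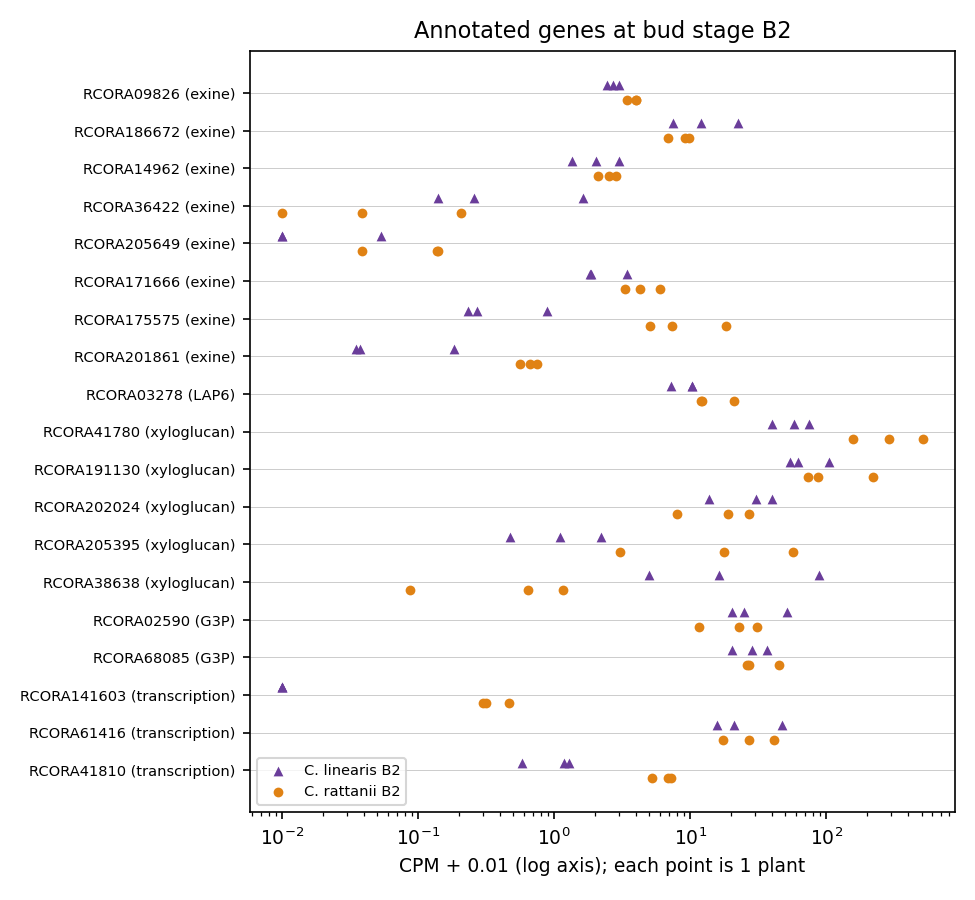
CPM at B2 plus 0.01, on a log axis, of the 19 annotated genes, 1 point per plant, with triangles for *C. linearis* and circles for *C. rattanii*. Both species overlap for 10 of the 19 genes. *RCORA41780* and *RCORA41810* are the genes called by edgeR, with all 3 *C. linearis* plants below all 3 *C. rattanii* plants.

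Of the 8 pollen exine genes, 7 were tested with edgeR and 0 called at B2, and DESeq2 called 1 lower in *C. linearis*. In edgeR 1 of the 7 had an unadjusted p under 0.05, against 48.4% of all tested genes. Of the edgeR estimates, 2 were above 0 and 5 below (median -0.48). *RCORA09826* encodes a chalcone synthase-like protein, the ortholog of *Arabidopsis* *LESS ADHESIVE POLLEN5* (*LAP5*), which makes sporopollenin precursors. It was at 2.99, 2.71 and 2.43 CPM in *C. linearis* plants 1 to 3 and at 3.98, 3.41 and 3.96 CPM in *C. rattanii*. All 3 *C. linearis* plants were slightly below the *C. rattanii* plants, with a difference of -0.48 (SE 0.94, edgeR FDR 0.706). The SE and FDR come from the fit on all 18 libraries, so they do not measure the spread at B2 alone. The SD of this gene over the *C. linearis* plants was 329 CPM at B1 and 0.280 CPM at B2. With the 6 B2 libraries alone the edgeR FDR was 0.296. *RCORA03278*, the ortholog of *LAP6* in the same pathway, was at 10.2, 10.3 and 7.22 CPM against 12.1, 20.8 and 12.1 CPM. Its groups did not overlap either, and the difference of -0.70 was smaller than its SE of 0.87 (edgeR FDR 0.542, and 0.142 with the 6 B2 libraries alone). *RCORA186672*, the other gene annotated with sporopollenin synthesis, was at 12.1, 22.6 and 7.49 CPM against 6.85, 9.20 and 9.70 CPM, so that the groups overlapped (difference 0.71, SE 0.71, edgeR FDR 0.443).

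Of the remaining exine genes, none was called by edgeR in the fit on all 18 libraries and 2 had groups that did not overlap. *RCORA175575* had 0.223, 0.262 and 0.875 CPM in *C. linearis* and 7.28, 5.05 and 18.4 CPM in *C. rattanii*. The highest *C. linearis* plant was well under the lowest *C. rattanii* plant, with a difference of -4.47 (SE 1.28) that missed the threshold with edgeR (FDR 0.0150) and passed it in DESeq2 (FDR 0.000170). With the 6 B2 libraries alone it also passed in edgeR (FDR 0.00956). *RCORA201861* had 1, 4 and 1 counts against 20, 29 and 19, again without overlap, and was called by neither tool (difference -3.25, SE 1.87, edgeR FDR 0.179, DESeq2 FDR 0.0797). With the 6 B2 libraries alone its edgeR FDR was 0.0245. *RCORA14962*, which is also annotated with lipid metabolism, and *RCORA171666* had differences of -0.23 and -0.92 with overlapping groups (edgeR FDR 0.890 and 0.514). The 2 genes also annotated with callose deposition, the process that lays down the temporary wall around the pollen mother cell, had few counts. *RCORA36422* had 10, 3 and 59 counts in *C. linearis* against 6, 0 and 1 in *C. rattanii* (difference 3.18, SE 1.53, edgeR FDR 0.112), and *RCORA205649* had 0, 1 and 0 against 4, 5 and 1 counts and did not pass the filter on low counts.

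The xyloglucan genes at B2 were split in direction. Of the 5 genes, edgeR called 1 lower in *C. linearis* (DESeq2 1 higher and 2 lower), and 3 had estimates below 0 and 2 above (median -0.78). *RCORA41780* was at 57.4, 40.1 and 74.2 CPM in *C. linearis* and at 289, 156 and 510 CPM in *C. rattanii*. The groups were far apart, with means of 57.2 ± 17.0 and 318 ± 179 CPM (SD, n = 3 plants), a 5.56-fold lower level in *C. linearis* and a difference of -2.48 (SE 0.56, edgeR FDR 0.00401). The FDR was 0.0157 and 0.0221 without *C. linearis* plants 1 and 2 and 0.0190 without *C. rattanii* plant 3, with differences of -1.97 or stronger in every case.

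For 2 further xyloglucan genes the groups did not overlap, in opposite directions, and the call was made by DESeq2 only. *RCORA205395* was at 2.201, 1.09 and 0.465 CPM in *C. linearis* against 17.7, 3.05 and 56.7 CPM in *C. rattanii*, a difference of -4.35 (SE 1.28, edgeR FDR 0.0168, DESeq2 FDR 0.000286). *RCORA38638* was at 4.95, 88.4 and 16.2 CPM against 1.14, 0.0769 and 0.635 CPM, a difference of 5.89 (SE 1.86, edgeR FDR 0.0237, DESeq2 FDR 0.000305). Its *C. linearis* mean rests largely on plant 2, and without that plant the difference was 4.09. *RCORA191130* and *RCORA202024* had overlapping groups and differences of -0.78 and 0.64 (edgeR FDR 0.254 and 0.535).

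Glycerol-3-phosphate is a precursor of glycerolipids and is oxidized by a dehydrogenase to an intermediate of glycolysis. Both genes listed under its catabolism overlapped between the species at B2. *RCORA02590* was at 24.9, 20.3 and 51.4 CPM in *C. linearis* and at 22.8, 11.5 and 30.9 CPM in *C. rattanii*, a difference of 0.57 (SE 0.45, edgeR FDR 0.331). *RCORA68085* was at 20.4, 28.4 and 36.6 CPM against 26.8, 45.0 and 26.2 CPM, a difference of -0.20 (SE 0.28, edgeR FDR 0.591).

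Regulation of transcription is an annotation of 3 of the genes taken here, and not of these alone in the genome. Among the 19 genes, *RCORA41810* had the lowest FDR at B2. It was at 0.569, 1.18 and 1.28 CPM in *C. linearis* and at 7.15, 5.20 and 6.87 CPM in *C. rattanii*. All *C. linearis* plants were far below all *C. rattanii* plants, a 6.34-fold lower level and a difference of -2.66 (SE 0.42, edgeR FDR 0.000360). The call held with each B2 library left out, with an FDR of at most 0.00209. *RCORA141603* had no count in any *C. linearis* B2 library and 14, 12 and 10 counts in *C. rattanii*, at least 11.5-fold lower in *C. linearis* against a floor of 3 counts over the group, and was called by DESeq2 (FDR 0.00368) and not by edgeR (FDR 0.0782). *RCORA61416* was at 20.8, 47.0 and 15.8 CPM against 17.5, 27.1 and 40.9 CPM, with full overlap (difference -0.03, SE 0.75, edgeR FDR 0.978).

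The same genes were set beside B1 and B3, bearing in mind that the study chose them for a species difference that varied with stage. Of the 7 exine genes tested with edgeR, 6 were called higher in *C. linearis* at B1 (median 6.64), where 15.7% of all genes were called in either direction, 0 at B2 and 0 at B3 (median -0.24, 15.0% of all genes called). DESeq2 called 8 higher at B1, 1 lower at B2 and 0 at B3. At B1 the exine genes were high in *C. linearis* plants 2 and 3 and low in plant 1. *RCORA09826*, for example, was at 3.22, 353 and 662 CPM in *C. linearis* plants 1 to 3 at B1, so the B1 difference rests on plants 2 and 3. The difference of *RCORA41810* hardly varied between B1 and B2, at -2.34 and -2.66, but was not steady over all stages. At B3 it stood at 0.26 and was not called (edgeR FDR 0.646). Its change between B2 and B3 was -2.92. This change passed in DESeq2 (FDR 5.75e-05) and missed the threshold with edgeR, at 0.0712. Of the 5 xyloglucan genes, 4 had estimates below 0 at B1 (median -1.41) and all 5 had estimates above 0 at B3 (median 3.21), where 1 was called by edgeR and 5 by DESeq2. Both glycerol-3-phosphate genes likewise had estimates above 0 at B3, where 1 was called by edgeR, and estimates of both signs at B1 and B2. The 3 stages come from the same plants. Whether the species difference at B2 departs from that at another stage was tested directly, and 0 of the 18 tested annotated genes passed with edgeR, where the lowest FDR was 0.139 against B1 and 0.0696 against B3. An unadjusted p under 0.05 was reached by 12 of them against B1 and by 8 against B3 (8.89% and 13.9% of all genes), and DESeq2 called 9 and 4 (0.578% and 1.59% of all genes). Since the study selected these genes for this interaction on these libraries, the counts are no independent evidence of it.

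**Figure D3:**
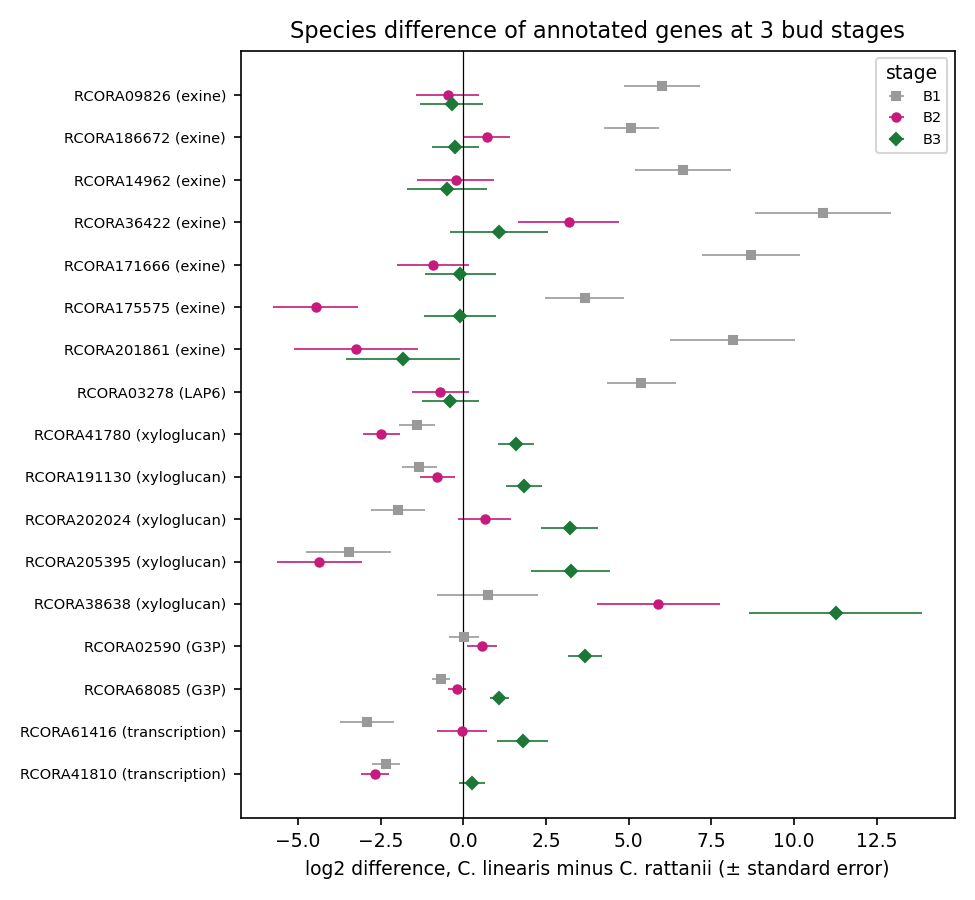
Log2 difference between *C. linearis* and *C. rattanii* (x axis, points with bars of 1 SE from edgeR's fit) of the annotated genes at B1 (squares), B2 (circles) and B3 (diamonds). *RCORA205649*, which was not tested, and *RCORA141603*, without counts in *C. linearis* at B2, are left out. The exine genes lie right of 0 at B1 and further left at B2, where 5 of the 7 estimates are below 0, and the xyloglucan genes lie right of 0 at B3.

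Over all genes, fewer were called at B1 (4376, 15.7%) and at B3 (4168, 15.0%) than at B2. Of the 5561 genes called at B2, 3126 (56.2%) were called in the same direction at B1, 2792 (50.2%) at B3 and 2246 (40.4%) at both. A further 1884 (33.9%) were called at B2 and at neither other stage, but only 172 of these had an unadjusted p under 0.05 for the change of the species difference against both stages. The sign of the difference was the same at all 3 stages for 5248 of the 5561 genes (94.4%), opposite at B1 for 59 and opposite at B3 for 266. The median size of the difference over the genes called at B2 was 2.60 at B1, 3.22 at B2 and 2.21 at B3 on the log2 scale, and the B2 value is the one by which these genes were selected.

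In the direct test with edgeR at FDR 0.01, 0 of 27837 genes (0%) had a species difference at B2 that departed from that at B1, and 0 (0%) one that departed from that at B3. Unadjusted, 2476 genes (8.89%) had a p under 0.05 against B1 and 3880 (13.9%) against B3. DESeq2 called 164 genes (0.578%) against B1 and 418 (1.59%) against B3, and limma-voom called 0 and 2. Power to find a change between stages was not simulated. The 0 calls therefore do not show that the species difference was the same at all stages. For the species difference at B2 itself, edgeR recovered 3 of 100 simulated differences of 1.5 on the log2 scale. That simulation changed 200 genes, whereas 5561 were called at B2 in the data.

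The gene nearest to the threshold was *RCORA84907*, whose species difference turned over between B2 and B3. At B2 it was at 0.915, 0.962 and 2.51 CPM in *C. linearis* and at 20.1, 35.2 and 35.0 CPM in *C. rattanii*. At B3 the order was reversed, with 31.2, 24.7 and 16.4 CPM in *C. linearis* and 9.35, 11.96 and 9.64 CPM in *C. rattanii*, and at neither stage did the groups overlap. The difference was -4.35 at B2 (SE 0.49, edgeR FDR 1.94e-05) and 1.22 at B3 (SE 0.43, edgeR FDR 0.0412). The change between the stages was -5.58 (SE 0.64), just short of the threshold (edgeR FDR 0.0102). It passed the threshold without *C. linearis* plant 3 (FDR 0.00111) and without *C. rattanii* plants 1 and 2 (FDR 0.00700 and 0.00911), and missed it without *C. linearis* plants 1 and 2 (FDR 0.0592 and 0.0389) and without *C. rattanii* plant 3 (FDR 0.0549). It also passed in limma-voom (FDR 0.00299) and DESeq2 (FDR 1.24e-15).

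*RCORA18004* had the lowest p in the other direction against B3 among genes with at least 10 counts in each B2 library. It stood at 174, 159 and 145 CPM in *C. linearis* and at 60.1, 53.0 and 48.9 CPM in *C. rattanii* at B2. Each group was tight, with means of 159 ± 14.5 and 54.0 ± 5.66 CPM (SD, n = 3 plants) and a 2.95-fold higher level in *C. linearis* (difference 1.56, SE 0.17, edgeR FDR 1.83e-05). At B3 the difference was -0.24 (SE 0.17, edgeR FDR 0.285), and the change between the stages was 1.80 (SE 0.24, edgeR FDR 0.0319).

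Against B1, the lowest p in each direction among genes with at least 10 counts in each of the 6 B2 libraries belonged to *RCORA90323* and *RCORA55326*. *RCORA90323* was at 2.52, 0.787 and 4.35 CPM in *C. linearis* at B2 against 24.3, 16.1 and 20.6 CPM in *C. rattanii*. The *C. linearis* plants were all below the *C. rattanii* plants at B2 (difference -2.98, SE 0.49, edgeR FDR 0.000481), whereas at B1 they stood at 32.6, 60.3 and 53.9 CPM against 17.99, 23.6 and 32.1 CPM. The change between the stages was -3.97 (SE 0.66, edgeR FDR 0.139, DESeq2 FDR 1.15e-06). *RCORA55326* overlapped at B2, with 2.89, 17.4 and 19.5 CPM against 8.32, 9.66 and 12.3 CPM, and did not at B1, where the difference was -5.24 (edgeR FDR 0.000942). The change was 5.64 (SE 1.18, edgeR FDR 0.178, DESeq2 FDR 0.000197).

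**Figure D4:**
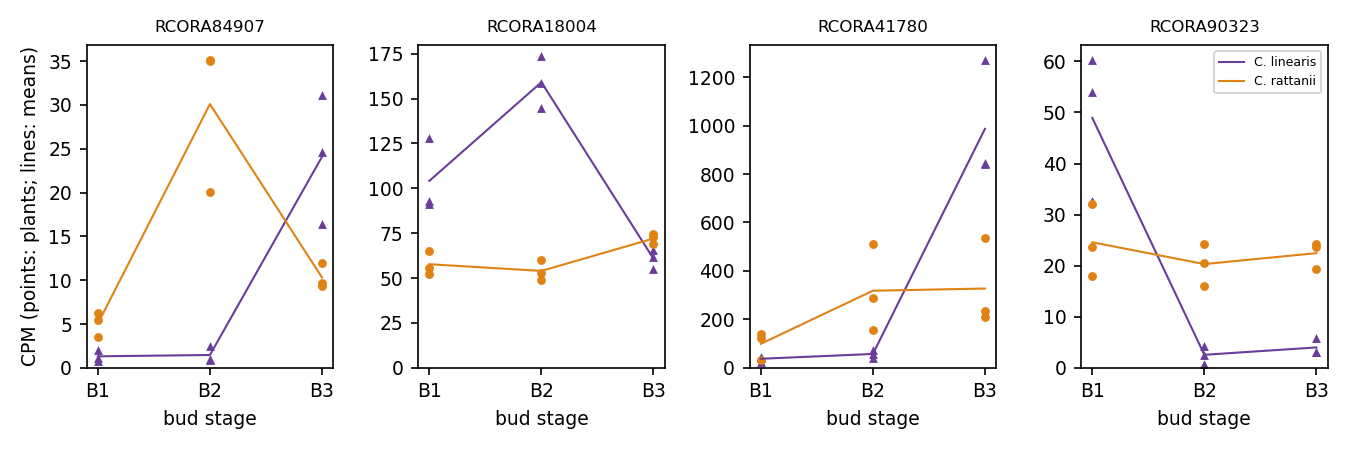
CPM of *RCORA84907*, *RCORA18004*, *RCORA41780* and *RCORA90323* at the 3 bud stages, on linear axes from 0, with points for plants (triangles *C. linearis*, circles *C. rattanii*) and lines through the means of 3 plants. At B2 the species do not overlap for any of the 4 genes, and *RCORA84907* and *RCORA41780* are lower in *C. linearis* at B2 and have the higher mean there at B3.

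The most abundant transcripts of the buds varied from plant to plant. Of the 50 genes with the highest mean CPM in each species at B2, 7 (14% of each list) were on both lists. Of the *C. linearis* list 3 genes were called by edgeR and of the *C. rattanii* list 8, both shares being below the 20.0% of all tested genes, and nothing is read from their direction because each list was picked for high levels in its species. *RCORA209769* took the most counts in *C. linearis* plants 1 and 2, with 5958, 13657 and 2378 CPM in *C. linearis* plants 1 to 3 and 92.1, 3.05 and 60.4 CPM in *C. rattanii*. The groups were far apart, but the difference of 7.14 (SE 2.42) had an edgeR FDR of 0.0320 (DESeq2 FDR 4.84e-05). *RCORA38539* took the most in *C. rattanii* plants 1 and 2, with 4602, 4989 and 385 CPM in *C. rattanii* against 1795, 1629 and 4058 CPM in *C. linearis*, and overlapped.

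In the remaining libraries, the most abundant gene was one that its own species did not share evenly. *RCORA50722*, the top gene of *C. linearis* plant 3, was at 0.618, 0.525 and 4443 CPM in *C. linearis* and at 2.81, 0.436 and 2.77 CPM in *C. rattanii*, so 1 library holds nearly all its counts. With that library the difference was 9.53 (edgeR FDR 0.0117), and without it -1.80 (edgeR FDR 0.146). *RCORA184251*, the top gene of *C. rattanii* plant 3, was at 3788, 83.1 and 8368 CPM in *C. rattanii* and at 306, 54.8 and 1420 CPM in *C. linearis* (difference -2.78, SE 1.21, edgeR FDR 0.0810). Plant 2 was the lowest of its species for this gene in both.

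The B2 library of *C. linearis* plant 2 stood apart in composition. Its 50 most abundant genes took 15.6% of the counts, against 9.02% and 9.15% in *C. linearis* plants 1 and 3 and 9.08 to 11.1% in the *C. rattanii* plants, and its TMM factor was 0.664, against 0.976 to 1.24 in the other 5. The share averaged 11.3 ± 3.78% over the *C. linearis* plants and 9.87 ± 1.11% over the *C. rattanii* plants (SD, n = 3 plants), which did not differ beyond the spread (two-sided exact permutation test, p = 0.9, where 3 plants against 3 allow no p below 0.1). Without *C. linearis* plant 2 the difference in means turned from 1.40 to -0.79 percentage points.

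How far each plant lay from its species' B2 mean was measured as its squared deviation in log2 CPM, averaged over the tested genes. The 3 *C. linearis* plants had values of 0.508, 0.560 and 0.746, and the 3 *C. rattanii* plants 0.291, 0.679 and 0.501. The species overlapped, with *C. rattanii* plant 2 above *C. linearis* plants 1 and 2 (ratio of means 1.23, two-sided exact permutation test, p = 0.4). Over the 20014 genes with at least 10 counts in each library the ratio was 0.831 (exact permutation p = 0.6), with the larger spread then in *C. rattanii*.

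**Figure D5:**
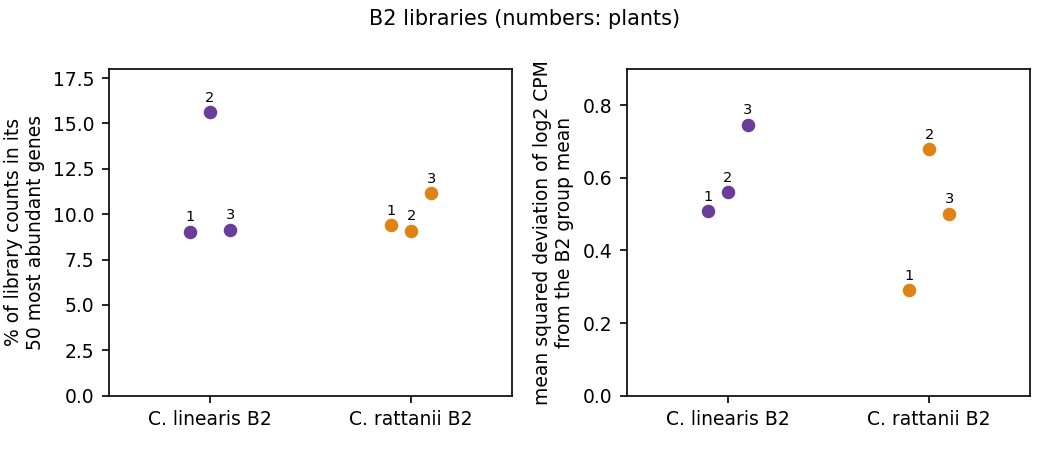
Left, the share of each B2 library's counts taken by its 50 most abundant genes (percent); right, squared deviation in log2 CPM from the B2 mean of the species, averaged over the 27837 tested genes. Each point is 1 plant, numbered, with *C. linearis* in purple and *C. rattanii* in orange. *C. linearis* plant 2 lies apart on the left at 15.6%, and the species overlap on the right.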

How the data were processed

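RNA-seq libraries were made from floral buds with a directional poly(A) kit. The authors aligned the reads to the *C. rattanii* genome with STAR and deposited raw read counts per gene model from featureCounts, neither normalized nor filtered; FastQC 0.11.9 is named in the submitters' processing notes. No source used here gives the strand or multi-mapping settings, so near-identical, overlapping and antisense genes are uncertain. 2 further count columns matched no sample and were not used.

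All 18 libraries (6 groups of 3) entered edgeR 4.0.16 (R 4.3.3): filterByExpr, TMM, a robust quasi-likelihood fit on group means, and F-tests at FDR 0.01, the model and FDR of the study, which fitted them in DESeq2. SEs were derived from the F statistic. DESeq2 1.42.0 and limma 3.58.1 (voom) were alternatives, with other scalings, filters, blocks and leave-outs. Log2 CPM used a prior count of 2. Steps were tested on simulated data with known species differences at B2, set for 200 of 27837 genes. The tests against B1 and B3 were not simulated. At FDR 0.01 edgeR recovered 3 of 100 genes with a log2 difference of 1.5 and 57 of 100 with 3, and made 0 false calls. DESeq2 recovered 30 and 86 of them and made 30 false calls. Total counts limit precision less than the spread between 3 plants; intervals of counting error were not used.

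The members and gene lists were chosen with earlier results of these data known. Genes were named by rule: a selection of those with a function in the paper, the 2 largest differences in each direction (called, at least 10 counts in all 6 libraries, no overlap), the lowest p in each direction against B1 and B3 (at least 10 counts in each B2 library), the 2 highest of the genes in 1 species only, and the top gene of each B2 library.

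Plant numbers do not pair the species: deviations from the group means of same-numbered plants correlated at -0.126, -0.168 and -0.0334.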

Additional observations from a re-analysis of the deposited data

How the results depend on the processing

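Among single genes, most alternatives left direction and call as they were. The 5561 calls became 2629 (1336 higher and 1293 lower in *C. linearis*) with at least 10 counts in each B2 library, 8927 (4643 higher) with DESeq2, 2589 (1212 and 1377) with the B2 libraries alone, 2516 (1158 and 1358) against a minimum fold of 2, 10547 (5437 and 5110) at FDR 0.05 and 2610 (1221 and 1389) without *C. linearis* plant 2 at all stages. Total counts without a scaling factor gave 1780 higher calls and moved the median of all genes from 0.01 to -0.29, and upper-quartile factors moved it to -0.12. With each B2 library left out, calls ran from 3127 to 5339, higher calls from 1161 to 2898 and lower calls from 1675 to 2441. These fits also hold fewer samples. The plant as a random replicate block in limma-voom gave 5746 calls (consensus correlation 0.0122), against 5743 without it. The plant number as a fixed replicate block in the B2 libraries gave 0 (8750 at an unadjusted p under 0.05, lowest FDR 0.0253). Shared numbers are no pairing.

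Against B1, DESeq2 gave 164 genes and leave-outs 0 to 1. Against B3, RLE size factors gave 1, limma-voom 2 with or without the block, DESeq2 418 and leave-outs 0 to 5. The spread ratio turned to 0.831 among well-counted genes. The top-50 difference ran from -0.79 to 2.52 over the leave-outs. Genes of *C. linearis* only fell to 44 at 30 counts and ran from 224 to 263 over leave-outs, and those of *C. rattanii* only from 500 to 630. Leaving out a library relaxes the definition of these sets, so their numbers can only stay or rise. The causes of the other shifts were not tested.

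Reversals touched genes that were not called: *RCORA55326* (-0.11 in limma-voom with or without the block, -0.027 with the number as block, -1.4e-05 to 0.87 over leave-outs), *RCORA38539* (0.13 in limma-voom, both fits), *RCORA14962* (-0.57 to 0.012 over leave-outs), *RCORA61416* (-0.68 to 0.28) and *RCORA50722* (-1.80 to 10.11).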

Other observations

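Genes that a single plant expressed at over 4 times the level of both other plants of its species (mean of at least 1 CPM over the 3) were counted at B2. There were 126, 280 and 771 such genes in *C. linearis* plants 1 to 3 and 27, 152 and 133 in *C. rattanii* plants 1 to 3. In *C. linearis* plant 2, the 280 genes took 7.89% of the library's counts, and 183 of them (65.4%) stood over 4 times above both other plants in that plant's B3 library too, while none did at B1. In *C. linearis* plant 3, 201 of the 771 genes (26.1%) did so at B3 and 15 at B1. In the *C. rattanii* plants, at most 2 genes did so at B3. How many of all genes stood over 4 times above in a B3 library was not counted. These shares thus have no background beside them. The B3 library of *C. linearis* plant 2 was itself skewed, with a TMM factor of 0.497 and 22.8% of counts in its 50 most abundant genes. In the other direction, 390, 216 and 207 genes were over 4 times below both other plants in *C. linearis* plants 1 to 3. The numbers were 32, 1016 and 531 in *C. rattanii* plants 1 to 3.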
